A study of Mus musculus with 32 samples.

Results

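The genes described here encode the subunits, activators, inhibitor and assembly chaperones of the proteasome in the mouse cochlea. They were taken by gene symbol, as every Psma, Psmb, Psmc, Psmd, Psme, Psmf or Psmg gene with a number, which gave 49 of the 39399 genes in the tables of one mouse strain and of the 43947 genes in those of the other. A set of 5 of them, Psmb8, Psmb9, Psmb10, Psme1 and Psme2, belongs to the immunoproteasome, and the other 44 were set against it. The proteasome is a barrel of stacked rings that degrades proteins tagged with ubiquitin. The outer rings are built of alpha subunits (Psma) and the inner rings of beta subunits (Psmb), of which a few cut peptide bonds, and a regulatory cap of ATPases (Psmc) and other subunits (Psmd) recognises, unfolds and feeds in the substrate. When interferon signals, newly built barrels take up Psmb8, Psmb9 and Psmb10 in place of the standard catalytic subunits Psmb5, Psmb6 and Psmb7, and a ring of Psme1 and Psme2 (PA28 alpha and beta) can open the barrel, which alters the peptides offered to class I molecules at the cell surface.

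RNA was sequenced from cochleae of mice aged 10 weeks, in 2 strains that both carry CBA. Mice of PrestinCre/+;RiboTagHA/+ genotype and of Sox2Cre/+;RiboTagHA/+ genotype carry an HA-tagged ribosomal protein wherever the Cre has acted, and that Cre is the inducible form driven by Prestin (PrestinCreERT2) or Sox2 (Sox2CreERT2). Mice of each strain had no noise (control) or were exposed to 105 dB SPL for 2 h and sampled 6 h or 24 h later. Every homogenate gave a pull-down with an HA antibody (IP), labelled as enriched for outer hair cells in the Prestin strain and for supporting cells in the Sox2 strain, and an input that represents the whole cochlea. Prestin libraries numbered 3 control, 3 at 6 h and 3 at 24 h for both IP and input. Sox2 libraries numbered 2 control, 2 at 6 h and 3 at 24 h for both. The labels call the libraries biological replicates without counting animals, so each p-value measures the spread between these libraries.

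Values are TPM, a measure of transcript abundance in which values are scaled to gene length and sum to 1000000 in each library, and read depth is unknown. Between 15929 and 21239 genes were above 0 per library, mitochondrial genes took 3.07% to 28.6% of TPM, and the nuclear RNA Malat1 ranged over 2304 to 73023 TPM. All 10 outer hair cell markers were higher in the Prestin IP than in its input, with a median log2 difference of 2.46, where 68.5% of all genes were higher and the median of all genes was 0.82. In the Sox2 IP 9 of 10 supporting cell markers (median 2.45) and 8 of 8 Schwann cell markers (median 2.53) were higher than in input, where 55.2% of all genes were higher and their median was 0.65. In bulk samples a change in the number of cells of a type and a change in RNA per cell cannot be told apart.

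Of the 49 genes, 48 passed the filter of 1 TPM in at least 5 of 16 input libraries and were tested in every comparison. The exception, Psma8, an alpha subunit of testis, lay between 0 and 0.356 TPM. Summed over all 49 genes, proteasome RNA made up 1905 to 3711 TPM per library. TPM differed widely between genes although the subunits assemble in fixed proportions. The length by which each gene was scaled is not given in the sources used here, and its part in these levels was not tested. In Prestin control inputs Psmb4 and Psmb6 averaged 315 ± 21.2 and 270.1 ± 21.6 TPM (SD, n = 3). The alpha subunit Psma3 averaged 6.33 ± 0.165 and the cap ATPase Psmc5 133 ± 5.4 TPM in the same libraries. Among the catalytic subunits, the immune Psmb10 averaged 47.8 ± 7.75 TPM there, above its standard counterpart Psmb7 at 15.6 ± 0.565 TPM, and the libraries of these genes did not overlap. Psmb10 is annotated at chr8:105935735-105938444 and Psmb7 over the longer chr2:38588036-38644087. With the scaling length unknown, their order by TPM may not be their order by number of transcripts. Psmb8 averaged 15.1 ± 4.02 TPM beside 29.6 ± 1.49 TPM of Psmb5, and Psmb9 3.95 ± 0.926 TPM beside 270.1 ± 21.6 TPM of Psmb6.

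In the mouse annotation (GRCm38), Psmb9 (chr17:34181987-34187764, minus strand), the peptide transporter gene Tap1 (chr17:34187553-34197225, plus strand), Psmb8 (chr17:34197721-34201454, plus strand) and Tap2 (chr17:34203527-34216321, plus strand) stand side by side in the class II region of the major histocompatibility complex. Psmb9 and Tap1 share 212 exonic bases on opposite strands, and 495 bases separate Tap1 from Psmb8. Psme1 (chr14:55578123-55581529, plus strand) and Psme2 (chr14:55587441-55591113, minus strand) are also neighbours, 5911 bases apart. Psmb10 lies alone among them on chr8:105935735-105938444, minus strand. The promoters of the 4 genes of the set that rose in the whole cochlea at 24 h are shown because those genes moved together. They are RefSeq sequences of GRCm38.p6, from 250 bases before to 50 bases after the start site, at chr17:34197945-34198244 (plus) for Psmb8, chr17:34187281-34187580 (minus) for Psmb9, chr8:105938343-105938642 (minus) for Psmb10 and chr14:55578244-55578543 (plus) for Psme1. Capitals mark a match on either strand to the core of the interferon-stimulated response element, or to TTCNNNGAA, the core of the STAT-binding GAS element.
Psmb8: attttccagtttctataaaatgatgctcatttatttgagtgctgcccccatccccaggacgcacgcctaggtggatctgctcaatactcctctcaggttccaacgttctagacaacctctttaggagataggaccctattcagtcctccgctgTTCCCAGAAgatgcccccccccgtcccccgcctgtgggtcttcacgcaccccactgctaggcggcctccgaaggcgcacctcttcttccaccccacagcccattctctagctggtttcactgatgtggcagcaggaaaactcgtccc
Psmb9: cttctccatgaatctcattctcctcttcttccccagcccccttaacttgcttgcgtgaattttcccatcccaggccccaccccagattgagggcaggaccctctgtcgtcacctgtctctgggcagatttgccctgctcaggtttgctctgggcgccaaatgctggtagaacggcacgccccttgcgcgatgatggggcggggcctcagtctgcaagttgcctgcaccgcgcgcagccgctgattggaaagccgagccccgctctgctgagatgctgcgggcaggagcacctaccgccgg
Psmb10: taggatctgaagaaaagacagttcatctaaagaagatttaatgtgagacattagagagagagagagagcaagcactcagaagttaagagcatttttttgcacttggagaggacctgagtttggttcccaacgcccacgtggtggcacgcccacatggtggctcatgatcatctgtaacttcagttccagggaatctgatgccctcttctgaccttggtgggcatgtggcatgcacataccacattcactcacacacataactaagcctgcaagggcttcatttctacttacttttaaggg
Psme1: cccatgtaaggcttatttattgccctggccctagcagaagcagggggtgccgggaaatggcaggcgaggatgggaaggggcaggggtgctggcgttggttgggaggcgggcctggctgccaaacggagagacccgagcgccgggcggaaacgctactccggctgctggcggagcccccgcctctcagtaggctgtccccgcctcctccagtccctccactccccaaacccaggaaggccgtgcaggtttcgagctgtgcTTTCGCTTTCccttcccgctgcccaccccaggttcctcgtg
The capitals in Psmb8 are a GAS core 97 bases before the RefSeq start site. Those in Psme1 are a response element core on the other strand, 9 bases after the RefSeq start. In these windows of Psmb9, Psmb10 and Psme2 neither core was found. The windows of Psmb8, Psmb9 and Psme1 lie wholly downstream of the gene starts in the annotation given above. For these genes the bases before the annotated gene start were not searched. Of the 41 genes that matched a RefSeq promoter, the interferon-stimulated response element core stood in 1 of 5 of the immunoproteasome set and 4 of 36 of the others, against 3.44% of 32851 mouse promoters. TTCNNNGAA stood in 1 of 5 and 2 of 36, against 8.30%. The antioxidant response element core TGACNNNGC stood in 0 of 5 and 6 of 36, against 12.4%, and the CCAAT box in 1 of 5 and 13 of 36, against 37.4%. The 3 cores and the CCAAT box do not contain each other, and both strands were searched for each.

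At 24 h after noise the immune catalytic subunits Psmb8, Psmb9 and Psmb10 and the activator subunit Psme1 were higher in the whole cochlea, while the genes of the alpha ring, the cap and core assembly did not pass the test. By limma on log2(TPM + 1) over all 14204 genes tested, with strain as a covariate, 6 of the 48 proteasome genes rose and 0 fell at an adjusted p under 0.05, and 4.44% of all genes passed in either direction (3.78% higher and 0.662% lower). The 6 were Psmb8, Psmb9, Psmb10 and Psme1, that is 4 of 5 of the immunoproteasome set, and Psme2b and Psmb6, that is 2 of 43 of the others. Of 23 alternative settings, the call of Psmb6 was lost in 15, that of Psmb9 in 5 and those of Psmb8, Psmb10 and Psme1 in 1, which was the fit of Sox2 inputs alone. The median difference was 1.15 on the log2 scale in the immunoproteasome set, 0.12 in the others and 0.02 over all genes tested.

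**Figure D1:**
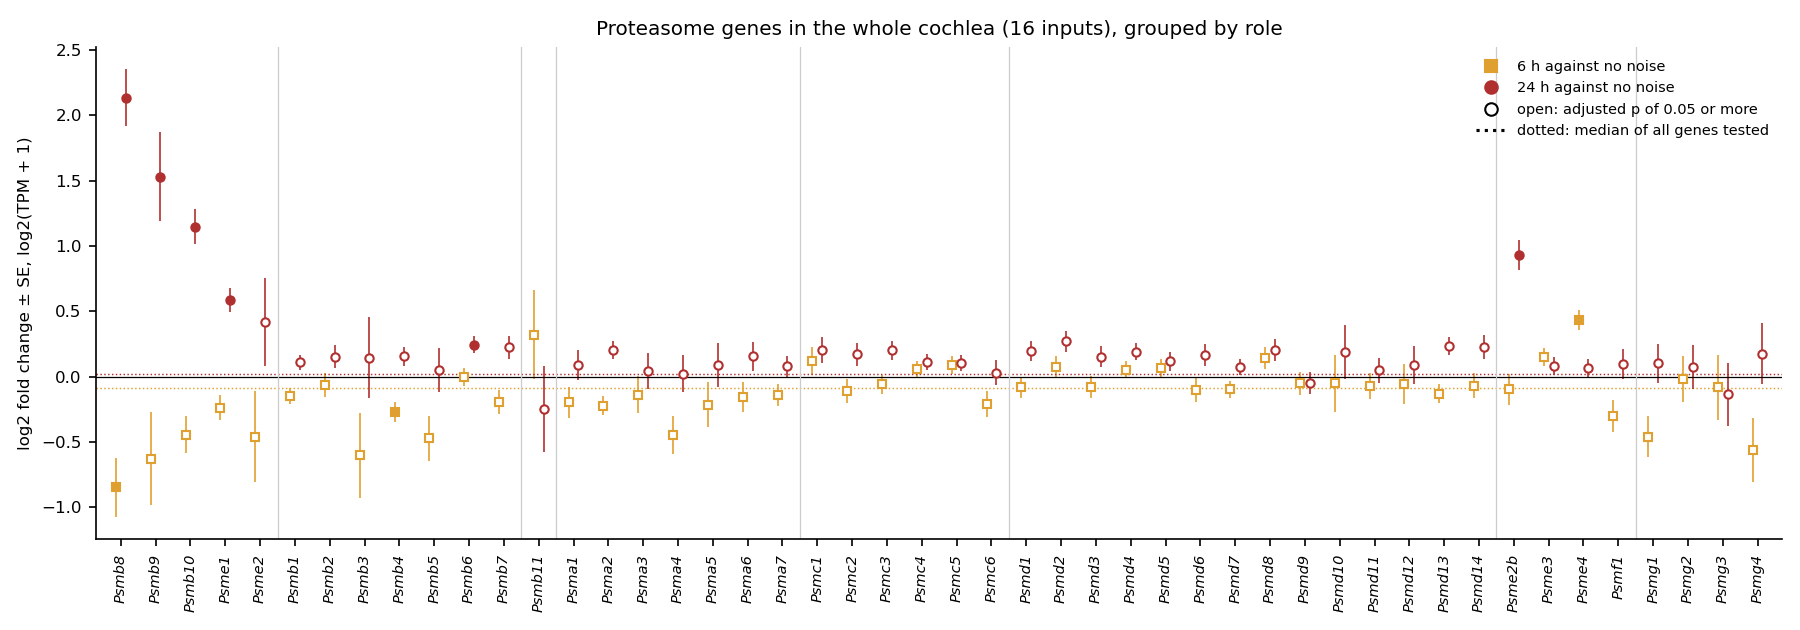
Log2 fold change on the log2(TPM + 1) scale with its SE (vertical axis) for each of the 48 tested proteasome genes, grouped by role (horizontal axis), in the 16 inputs at 6 h (squares) and 24 h (circles) against control. Filled symbols have an adjusted p under 0.05, and dotted lines mark the medians of all genes. Psmb8 stands highest at 24 h, at 2.14, and lowest at 6 h, at -0.85.

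Psmb8, the immune counterpart of Psmb5, had 70.8, 66.5 and 54.4 TPM in Prestin inputs at 24 h, against 18.2, 10.6 and 16.6 TPM in Prestin control inputs. In Sox2 inputs it had 52.6, 77.1 and 47.7 TPM at 24 h, against 12.2 and 11.5 TPM in controls. Every input library at 24 h was above every control input of either strain. The ratio of mean TPM, 24 h over control, was 4.22 in Prestin and 4.98 in Sox2 inputs, and the log2 difference was 2.14 ± 0.22 (SE, limma adjusted p = 3.93e-05).

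Psmb10, the immune counterpart of Psmb7, had 116, 107 and 84.6 TPM at 24 h, against 42.7, 44 and 56.7 TPM in controls, in Prestin inputs. Its Sox2 inputs held 121, 137 and 120.2 TPM at 24 h, against 61.1 and 47.1 TPM in controls. The groups were again apart in both strains, with mean ratios of 2.14 and 2.33 and a log2 difference of 1.15 ± 0.14 (SE, limma adjusted p = 0.000147). Psmb9, the immune counterpart of Psmb6, had the lowest TPM of the immune catalytic genes. It had 14.2, 7.57 and 8.73 TPM at 24 h, against 4.02, 3 and 4.85 TPM in control, in Prestin inputs, and 11.4, 13.3 and 13.6 TPM at 24 h, against 3.4 and 1.94 TPM in control, in Sox2 inputs. All 24 h libraries were above the controls of their strain, and the log2 difference was 1.53 ± 0.34 (SE, limma adjusted p = 0.0184). That call was lost without Sox2 control replicate 4 (log2 difference 1.43, adjusted p = 0.0506) and with a pseudocount of 0.1 (1.80, adjusted p = 0.0896). Psmb9 overlaps Tap1, which itself rose by 1.31 ± 0.13, and whether the counting used strand is not given in the sources used here.

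Psme1, the alpha subunit of the PA28 ring, had 153, 152 and 145 TPM in Prestin inputs at 24 h, against 86.1, 92.6 and 119 TPM in controls. In Sox2 inputs it had 119, 114 and 128 TPM, against 89.1 and 72.6 TPM in controls. The groups did not overlap within a strain, and the log2 difference was 0.59 ± 0.09 (SE, limma adjusted p = 0.00133). Its partner Psme2 had 20.6, 15.8 and 12.9 TPM at 24 h, against 10.7, 13.4 and 11.6 TPM in controls, in Prestin inputs, with the groups overlapping, and its log2 difference was 0.42 ± 0.34 (SE, limma adjusted p = 0.648). Psme2 is nearly duplicated by Psme2b, a copy at chr11:48945354-48946190 (minus strand) whose transcript is 99.37% identical to that of Psme2 over 794 bases. The copy carried 78.9% to 99.98% of the TPM of the pair, with a median of 97.6% over 32 libraries, so the split of reads between them is uncertain. Psme2b had 1125, 775 and 749 TPM at 24 h, against 479, 463 and 493 TPM in controls, in Prestin inputs. Its Sox2 inputs held 540.0, 667 and 632 TPM at 24 h, against 327 and 273 TPM in controls. It rose by 0.93 ± 0.11 on the log2 scale (SE, limma adjusted p = 0.000188), and Psme2 and Psme2b summed, an alternative added after seeing the data, rose by 0.92 (adjusted p = 0.000198).

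Fitted within a strain, Psmb8 (log2 difference 2.03), Psmb10 (1.08), Psme1 (0.60) and Psme2b (0.86) kept their calls in Prestin inputs alone, and Psmb9 did not (1.15, limma adjusted p = 0.168). In Sox2 inputs alone no proteasome gene passed, with Psmb8 at 2.19 (adjusted p = 0.095), Psmb9 at 1.93, Psmb10 at 1.22, Psme1 at 0.57 and Psme2b at 1.03. Without any single one of the 16 inputs, Psmb8, Psmb10, Psme1 and Psme2b kept their calls.

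**Figure D2:**
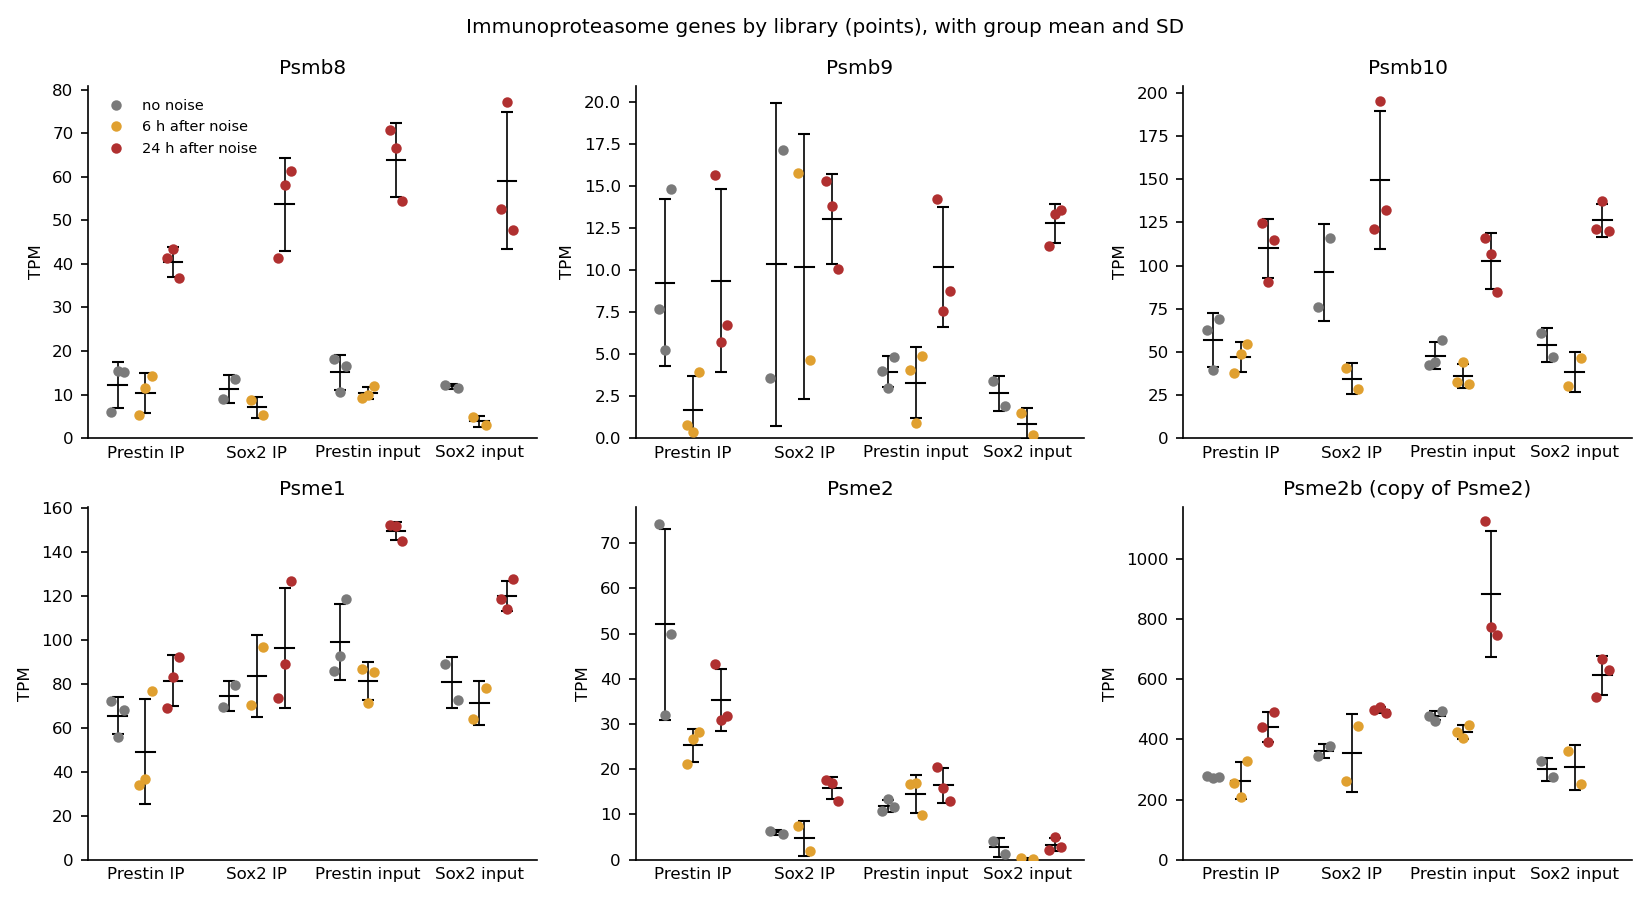
TPM of Psmb8, Psmb9, Psmb10, Psme1, Psme2 and Psme2b in each library (points) at control, 6 h and 24 h, for IP and input of both strains, with group means and SD (bars) on axes that start at 0. Psmb8 stands at 36.7 to 77.1 TPM in all libraries at 24 h and at 18.2 TPM or less in all controls.

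Of the standard catalytic subunits, Psmb6 had 324, 309 and 296 TPM at 24 h, against 272, 248 and 291 TPM in controls, in Prestin inputs, and 343, 395 and 387 TPM at 24 h, against 317 and 294 TPM in controls, in Sox2 inputs. Its rise was small, 0.24 ± 0.06 on the log2 scale (SE, limma adjusted p = 0.0468), and the call was lost without any 1 of 10 of the 16 inputs and after median-of-ratios scaling (0.22, adjusted p = 0.0501). Psmb5 had 23.2, 30.4 and 29.3 TPM at 24 h, against 29.1, 31.2 and 28.3 TPM in controls, in Prestin inputs, which overlapped. Its log2 difference was 0.05 ± 0.17 (SE, limma adjusted p = 0.933), and that of Psmb7 was 0.23 ± 0.09 (adjusted p = 0.216). In the remaining classes none passed the test at 24 h. Medians were 0.09 for 7 alpha ring genes, 0.14 for 6 cap ATPases, 0.18 for 14 other cap genes and 0.09 for 4 chaperones of core assembly. The alpha ring genes include Psma5, whose copy Psma5-ps carried 97.3% to 99.98% of the TPM of the pair over 32 libraries. How reads were split between Psma5 and its copy is not given. Of the 43 genes outside the immunoproteasome set, 40 had a positive difference, with a range of -0.25 to 0.93 whose upper end is Psme2b.

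**Figure D3:**
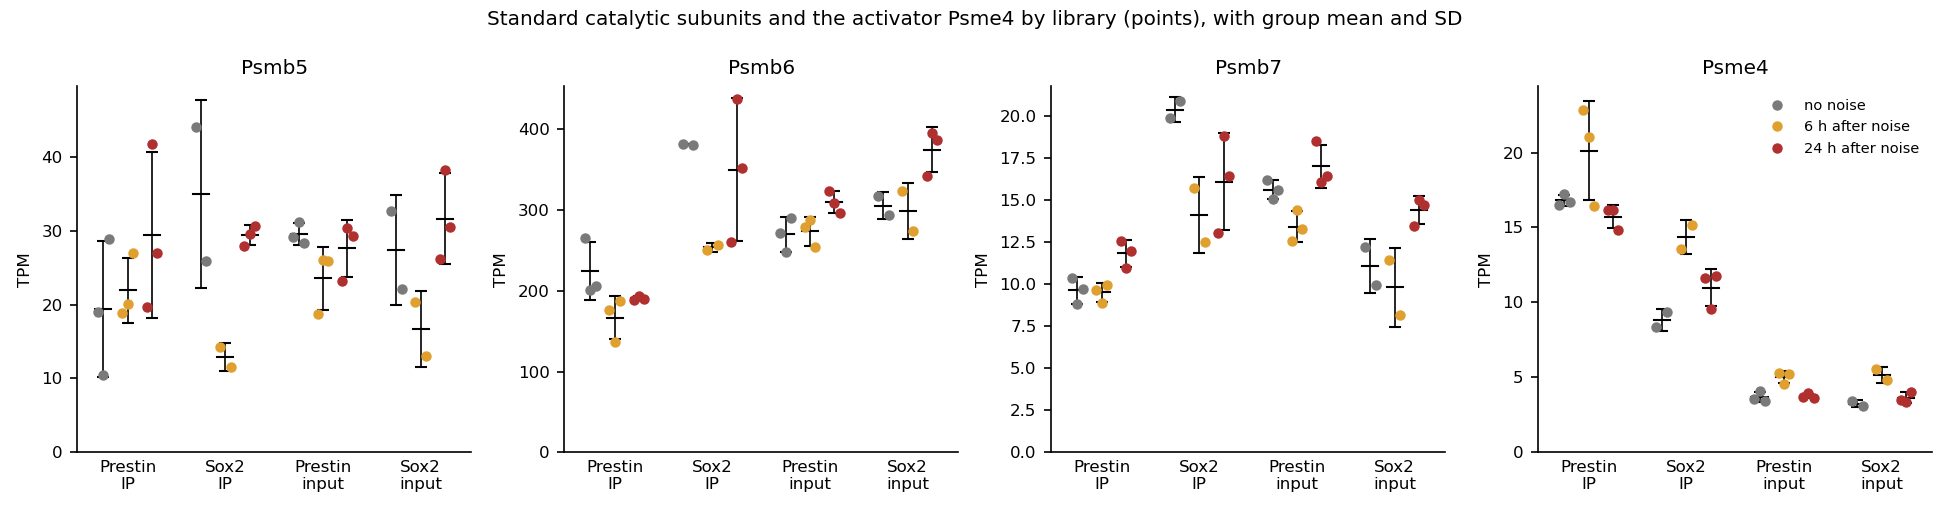
TPM of the standard catalytic subunits Psmb5, Psmb6 and Psmb7 and of the activator Psme4 in each library (points) at control, 6 h and 24 h, for IP and input of both strains, with group means and SD (bars) on axes that start at 0. Psmb6 in Prestin inputs sits at 296 to 324 TPM at 24 h and at 248 to 291 TPM in controls.

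The summed TPM of Psmb8, Psmb9 and Psmb10 was set over their sum with Psmb5, Psmb6 and Psmb7, a share of catalytic TPM that was described and not tested. The height of this share depends on the length by which each gene was scaled, which is not given. In Prestin inputs it was 17.4% ± 1.34 in control, 13.8% ± 0.777 at 6 h and 33.1% ± 2.70 at 24 h (SD, n = 3 each). In Sox2 inputs it was 16.6% ± 1.28 in control (SD, n = 2), 11.9% ± 3.59 at 6 h (n = 2) and 31.96% ± 2.14 at 24 h (n = 3). All 6 inputs at 24 h lay between 29.6% and 35.5%, above all 5 controls at 15.7% to 18.9%, and all 5 inputs at 6 h lay below the controls at 9.31% to 14.4%. In the Prestin IP the share was 23.6% ± 4.57 in control, 23.0% ± 4.71 at 6 h and 40.7% ± 4.44 at 24 h (SD, n = 3 each). In the Sox2 IP it was 21.05% ± 6.33 in control, 15.5% ± 4.89 at 6 h (SD, n = 2 each) and 35.4% ± 1.69 at 24 h (n = 3). The difference between 24 h and control was 17.1 and 14.4 percentage points in the Prestin and Sox2 IPs and 15.7 and 15.4 points in their inputs. Taken as the mean of the 3 single ratios (Psmb8 with Psmb5, Psmb9 with Psmb6, Psmb10 with Psmb7), the difference was 8.39 and 15.96 points in the Prestin and Sox2 IPs and 16.1 and 14.5 points in their inputs. Within single pairs in Prestin inputs, Psmb8 was 69.7% ± 5.23 of Psmb8 and Psmb5 at 24 h, against 33.6% ± 7.19 in control (SD, n = 3 each). Psmb10 was 85.6% ± 1.67 of Psmb10 and Psmb7 at 24 h, against 75.1% ± 3.04 in control. Psmb9 was 3.15% ± 0.940 of Psmb9 and Psmb6 at 24 h, against 1.43% ± 0.223 in control, so Psmb6 TPM was above Psmb9 TPM in both conditions. Over all 49 genes, the immunoproteasome set made up 9.64% to 10.97% of proteasome TPM in inputs at 24 h, against 6.04% to 7.77% in control inputs. With Psme2b, the near copy of Psme2, counted in the set, the share was 28.8% to 40.4% at 24 h, against 18.3% to 26.1% in control.

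**Figure D4:**
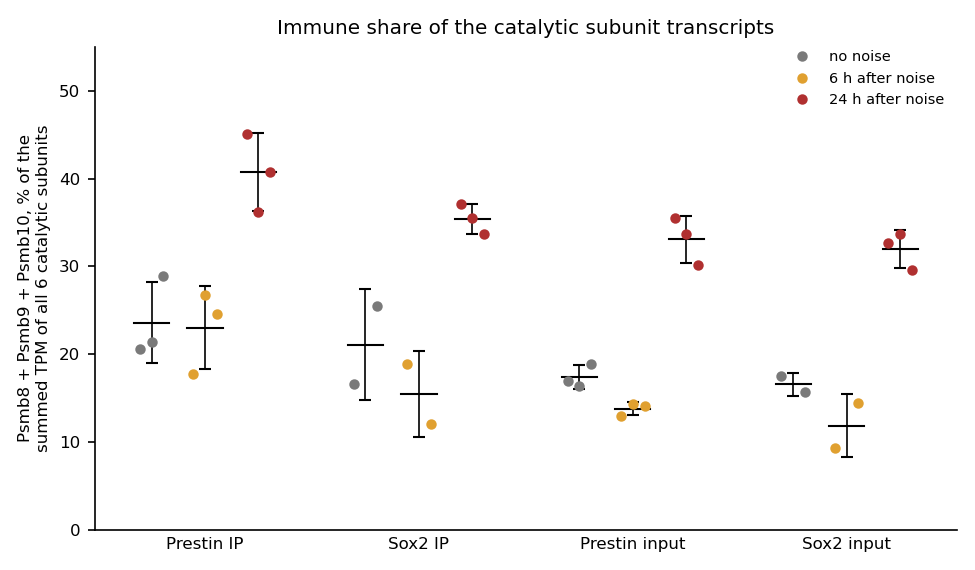
Summed TPM of Psmb8, Psmb9 and Psmb10 as a percentage of that of all 6 catalytic subunits in each library (points) at control, 6 h and 24 h, with group means and SD (bars), for IP and input of both strains. Inputs at 24 h sit at 29.6% to 35.5%, controls at 15.7% to 18.9%.

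At 6 h the whole cochlea looked different. There 3 of the 48 proteasome genes passed, 1 higher (Psme4) and 2 lower (Psmb8 and Psmb4). Over all genes 8.54% passed in either direction (3.83% higher and 4.71% lower). The median log2 difference was -0.46 in the immunoproteasome set, -0.08 in the others and -0.09 over all genes. Psme4 encodes PA200, an activator of the barrel that acts without ubiquitin. It had 5.32, 4.58 and 5.23 TPM at 6 h, against 3.56, 4.1 and 3.42 TPM in controls, in Prestin inputs. Its Sox2 inputs held 5.56 and 4.8 TPM at 6 h, against 3.42 and 3.07 TPM in controls. All libraries at 6 h were above all controls, the log2 difference was 0.44 ± 0.08 (SE, limma adjusted p = 0.00269), and the call held without any 1 of the 16 inputs. At 24 h Psme4 was at 3.68, 3.95 and 3.65 TPM in Prestin inputs, which overlapped the controls, and its difference between 24 h and 6 h was -0.37 (limma adjusted p = 0.0034).

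Psmb8 had 9.27, 9.9 and 12 TPM in Prestin inputs at 6 h and 4.83 and 3.04 TPM in Sox2 inputs at 6 h, against the control values above. The Prestin groups overlapped and the Sox2 groups did not. The Sox2 inputs at 6 h had 16966 and 15929 genes above 0, against 19760 and 19748 in Sox2 control inputs, and mitochondrial shares of 26.2% and 28.6%, against 20.5% and 24.1%, and the part of these differences in the result was not tested. The log2 difference was -0.85 ± 0.23 (SE, limma adjusted p = 0.0317), at -0.48 (adjusted p = 0.214) in Prestin inputs alone and -1.41 (adjusted p = 0.0735) in Sox2 inputs alone. The call was lost without any 1 of 7 of the 16 inputs, which were Prestin control replicates 1 and 3, Prestin 6 h replicate 1, both Sox2 6 h replicates and both Sox2 control replicates, with adjusted p up to 0.0832. Psmb4, a structural beta subunit, fell by 0.27 (adjusted p = 0.0439), a call that was lost without any 1 of 13 of the 16 inputs. After median-of-ratios scaling the split at 6 h was 2 higher and 1 lower, because Psmb4 no longer passed (-0.19, adjusted p = 0.0904) while Psme3, the PA28 gamma activator, did. The other immune genes were at -0.63 (Psmb9), -0.44 (Psmb10, adjusted p = 0.0676), -0.24 (Psme1) and -0.46 (Psme2). The standard catalytic genes were at -0.47 (Psmb5, adjusted p = 0.109), -0.00 (Psmb6) and -0.19 (Psmb7). Without Prestin 6 h replicate 2 the count was 6, Psmb10 among them (adjusted p = 0.0246).

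Set directly against 6 h, the inputs at 24 h had 20 proteasome genes higher and 1 lower of 48, where 16.1% of all genes passed in either direction (12.6% higher and 3.48% lower). The median log2 difference was 1.59 in the immunoproteasome set, 0.24 in the others and 0.10 over all genes. Psmb8 was higher by 2.98, Psmb9 by 2.16, Psmb10 by 1.59 and Psme1 by 0.82, each with a limma adjusted p under 0.05, and Psme2 by 0.88 without passing (adjusted p = 0.0933). The 16 others higher included Psme2b (1.03), the alpha subunit Psma2 (0.42), Psmb4 (0.43), the cap subunit Psmd13 (0.36) and the standard catalytic Psmb5 (0.53), Psmb6 (0.25) and Psmb7 (0.42), and the 1 lower was Psme4. The comparisons of 24 h with control and with 6 h share the 24 h libraries, and those of 6 h and 24 h with control share the controls. The count depended on scaling and strain, being 11 after median-of-ratios scaling, 9 in Prestin inputs alone and 5 in Sox2 inputs alone, and it was 13 without Sox2 24 h replicate 3.

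In the outer hair cell pull-down, Psmb8 had 41.3, 43.5 and 36.7 TPM at 24 h, against 6.07, 15.4 and 15.3 TPM in controls. The nuclear RNA Malat1 was at 12251 to 22823 TPM in the Prestin IPs at 24 h and 15602 to 21421 TPM at 6 h, against 44030 to 73023 TPM in their controls, and its part in these comparisons was not tested. For Psmb8 every 24 h library was above every control, the ratio of means was 3.31, and the log2 difference was 1.75 ± 0.41 (SE, limma adjusted p = 0.0475). Psmb8 was the only 1 of 48 proteasome genes past the threshold there, where 6.23% of all genes passed in either direction, 1.10% higher and 5.14% lower, and the call was lost without any 1 of 8 of the 9 IP libraries (log2 difference 1.34 to 1.95), with a pseudocount of 0.1 and without the filter on low values. Psmb10 had 124, 90.7 and 115 TPM at 24 h, against 62.7, 39.2 and 69.1 TPM in controls. Those groups were apart as well, with a log2 difference of 0.96 ± 0.25 (SE, limma adjusted p = 0.0594). After median-of-ratios scaling, which put the median of all genes at 0.03, Psmb10 was at 1.17 and passed (adjusted p = 0.0461). Psmb9 had 15.6, 5.73 and 6.72 TPM at 24 h, against 7.71, 5.22 and 14.8 TPM in controls, and its difference was 0.00 ± 0.58 (adjusted p = 0.997). Psme1 was at 0.31, Psme2 at -0.48 and Psme2b at 0.68 (adjusted p = 0.0669). The median was 0.31 in the immunoproteasome set, -0.07 in the others and -0.15 over all genes. Psmb5, Psmb6 and Psmb7 were at 0.62, -0.22 and 0.27 and did not pass.

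At 6 h no proteasome gene passed in the outer hair cell pull-down by limma, and 5.63% of all genes passed. Psmb9 had 0.789, 0.366 and 3.97 TPM at 6 h, against 7.71, 5.22 and 14.8 TPM in controls, a log2 difference of -2.05 ± 0.58 (SE, adjusted p = 0.0764). All its 6 h libraries were below all controls. Without Prestin control replicate 2, 3 proteasome genes passed, Psme2 among them (-1.24, adjusted p = 0.044). Between 24 h and 6 h none passed, and 0.102% of all genes passed.

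In the supporting cell pull-down, Psmb8 had 41.4, 58.2 and 61.3 TPM at 24 h, against 8.96 and 13.6 TPM in controls. The groups did not overlap and the ratio of means was 4.77, but with 2 control libraries the log2 difference of 2.16 ± 0.31 had a limma adjusted p of 0.0858. Psmb10 had 121, 195 and 132 TPM at 24 h, against 76.1 and 116 TPM in controls, a log2 difference of 0.63 ± 0.31 (adjusted p = 0.486). Psmb9 had 15.3, 13.8 and 10.1 TPM at 24 h, against 3.56 and 17.1 TPM in controls, which overlapped (0.61 ± 0.71, adjusted p = 0.762). Psme1 was at 0.34 and Psme2 at 1.25, and Psmb5, Psmb6 and Psmb7 were at -0.20, -0.15 and -0.34. None of the 48 genes passed at 24 h, and 0.188% of all genes passed. The median was 0.63 in the immunoproteasome set, 0.05 in the others and 0.14 over all genes. At 6 h none passed either, and 0.694% of all genes passed. Among the catalytic subunits and the activator ring, the farthest there were Psmb10 at -1.44 (adjusted p = 0.118) and Psmb5 at -1.33 (adjusted p = 0.101), while Psmb8 was at -0.60, Psmb9 at 0.10, Psme1 at 0.15, Psme2 at -0.49, Psmb6 at -0.59 and Psmb7 at -0.51. The Sox2 IPs at 6 h had 16813 and 16537 genes above 0, against 19230 and 17395 in their controls. Between 24 h and 6 h only Psmb8 passed, where 0.506% of all genes did (0.438% higher and 0.0683% lower), with a log2 difference of 2.76 (limma adjusted p = 0.0471). That call was lost without any single one of the 7 IP libraries (adjusted p 0.0578 to 0.114).

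The responses at 24 h in pull-down and input were compared directly as a difference of differences. For Psmb8 the outer hair cell IP minus its input was -0.29 (95% interval -1.31 to 0.73), and the supporting cell IP minus its input was -0.03 (95% interval -0.96 to 0.90). For Psmb10 they were -0.12 (95% interval -0.79 to 0.55) and -0.58 (95% interval -1.46 to 0.29). For Psmb9 the intervals were wider, at -1.14 (95% interval -2.77 to 0.49) and -1.33 (95% interval -3.22 to 0.57). Between the pull-downs, outer hair cell minus supporting cell, Psmb8 differed by -0.42 (95% interval -1.64 to 0.81) and Psmb10 by 0.33 (95% interval -0.55 to 1.21). None of the 48 genes passed limma's test of these differences. Over all genes 1.04% passed for outer hair cell IP minus input and 0.0485% for supporting cell IP minus input. For outer hair cell IP minus supporting cell IP it was 0.168%. The intervals, and not the missed threshold, bound how far these responses could differ.

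Which proteasome RNAs the pull-downs held, over all conditions, was read from IP against input. Malat1 was at 8533 to 73023 TPM in IPs and at 2304 to 4226 TPM in inputs. Mitochondrial genes took 3.07% to 13.7% of TPM in IPs and 20.5% to 28.6% in inputs. The part of these differences in the comparison was not tested. In the outer hair cell pull-down 13 of 48 genes were higher than input and 16 lower, where 76.1% of all genes passed, 68.5% higher and 7.68% lower. The median of the proteasome genes was -0.05 and that of all genes 0.82, and 44 of 48 lay below the median of all genes. After median-of-ratios scaling, which brought the median of all genes to 0.07, 3 were higher and 42 lower. The shares of all genes given for both pull-downs are from the unscaled fits. Those under the scaling are not given, so the scaled counts have no matching share. The 4 above the median of all genes were Psma3, Psme2, Psme4 and Psmg3. In the supporting cell pull-down 24 were higher and 1 lower, where 57.9% of all genes passed, 55.2% higher and 2.72% lower, with a median of 0.29 beside 0.65 over all genes, and 41 of 48 lay below the median of all genes. Median-of-ratios scaling brought that median to 0.03 and gave 4 higher and 37 lower. With each homogenate as a block the outer hair cell counts were 13 and 16 and the supporting cell counts 24 and 0, since Psmb11, the thymic catalytic subunit, no longer passed (-0.67, adjusted p = 0.0539).

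Psme4 and Psma3 were above input in both pull-downs. Psme4 was at 14.8 to 22.9 TPM in Prestin IPs, against 3.42 to 5.32 TPM in their inputs, and at 8.33 to 15.2 TPM in Sox2 IPs, against 3.07 to 5.56 TPM in inputs. The IP was above its own input in 9 of 9 and in 7 of 7 homogenates, with log2 differences of 1.84 ± 0.07 and 1.30 ± 0.09 (SE, limma adjusted p = 1.03e-11 and 1.37e-06). The alpha subunit Psma3 was at 19.97 to 31.9 TPM in Prestin IPs, against 4.92 to 7.76 TPM in inputs, and at 11 to 24.6 TPM in Sox2 IPs, against 1.82 to 4.18 TPM in inputs. It too was above its own input in 9 of 9 and 7 of 7 homogenates, with log2 differences of 1.94 ± 0.10 and 2.11 ± 0.19 (limma adjusted p = 3.27e-10 and 6.24e-06). The chaperone of core assembly Psmg3 was higher in the outer hair cell pull-down by 1.38 and the alpha subunit Psma4 by 0.80 and, in the supporting cell pull-down, by 1.08. The direction for Psma4 in outer hair cells turned to -0.25 after median-of-ratios scaling. The lowest in the outer hair cell pull-down relative to input were the alpha subunits Psma6 (-0.97) and Psma2 (-0.85), Psme2b (-0.83), Psme1 (-0.76), the cap chaperone Psmd10 (-0.69), the cap ATPase Psmc3 (-0.67), the core assembly chaperone Psmg4 (-0.63), Psmb6 (-0.57) and Psmb7 (-0.53).

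Of the immune catalytic genes, Psmb9 in the supporting cell pull-down was the only one past the threshold in either pull-down. Psmb8 was at -0.36, Psmb9 at 0.01 and Psmb10 at 0.23 in the outer hair cell pull-down, and none passed. After median-of-ratios scaling Psmb9 was at -0.84 and Psmb10 at -0.83. In the supporting cell pull-down Psmb9 was higher than input by 1.28, a call lost in 2 of 12 alternative settings. Its Sox2 inputs were low in control (3.4 and 1.94 TPM) and at 6 h (1.5 and 0.2 TPM). At 24 h IP (15.3, 13.8 and 10.1 TPM) and input (11.4, 13.3 and 13.6 TPM) overlapped. In that pull-down Psmb8 and Psmb10 turned to -0.67 and -0.61 under median-of-ratios scaling. Psme2 was above input by 1.27 in the outer hair cell pull-down and by 1.70 in the supporting cell pull-down. Summed with Psme2b, the pair was at -0.70 in the outer hair cell pull-down (limma adjusted p = 6.61e-06).

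**Figure D5:**
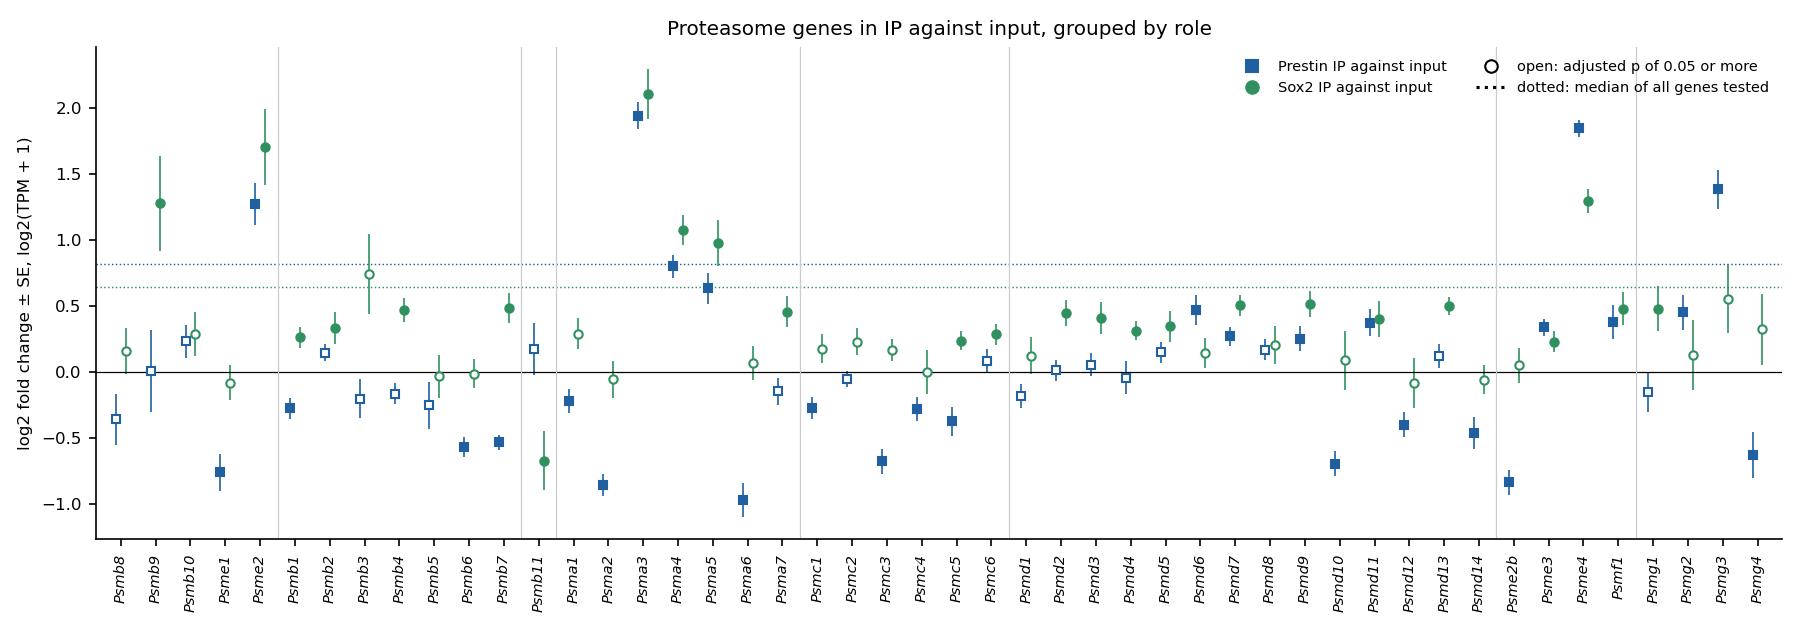
Log2 fold change of IP against input on the log2(TPM + 1) scale with its SE (vertical axis) for each of the 48 tested proteasome genes, grouped by role (horizontal axis), in the Prestin strain (squares) and the Sox2 strain (circles). Filled symbols have an adjusted p under 0.05, and dotted lines mark the medians of all genes, 0.82 and 0.65. Psma3 and Psme4 lie above both lines.

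Compared directly, the enrichment of proteasome RNA in outer hair cells minus that in supporting cells had a median of -0.35, against 0.19 over all genes. It was higher for 3 of 48 genes and lower for 18, where 21.6% of all genes passed, 14% higher and 7.62% lower. After median-of-ratios scaling it was higher for 1 and lower for 24, and the share of all genes under that scaling is not given. Those lower included Psmb7 (-1.02 ± 0.11, SE, limma adjusted p = 1.93e-06), Psma6 (-1.04), the cap ATPase Psmc3 (-0.84), Psma2 (-0.80), Psme1 (-0.68) and Psmb6 (-0.55). Psme4 was higher by 0.55 ± 0.10 (adjusted p = 0.000638). Psmg3 (0.83) and Psmb11 (0.85) were higher too, but neither passed with the homogenate as a block (adjusted p = 0.064 and 0.0643) or after median-of-ratios scaling (adjusted p = 0.101 and 0.0768).

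Genes that work with the proteasome were read from 3 lists, beside the 3.78% of all genes that were higher and 0.662% lower in the whole cochlea at 24 h. Of 11 class I peptide supply genes, 10 rose in the whole cochlea at 24 h, with a median of 0.61, among them the transporter subunit Tap1 (1.31), tapasin Tapbp (0.83) and the class I heavy chains H2-K1 (1.03) and H2-D1 (0.88). Of 12 genes of interferon control, 5 rose (median 0.57), including the transcription factors Irf7 (2.03), Irf1 (1.27) and Stat2 (0.90). Of 20 proteasome partners none passed by limma (median 0.02), a list that holds the core maturation protein Pomp, the shuttle factors and Nfe2l1, the transcription factor of standard proteasome genes. At 6 h the peptide-loading chaperones Calr (0.48) and Pdia3 (0.26) rose (2 of 11 class I peptide supply genes, limma), where 3.83% of all genes were higher. Irf1 (0.89) and the cytokine feedback inhibitor Socs1 (1.04) rose at 6 h as well. In the outer hair cell pull-down at 24 h the class I light chain B2m (1.66), Tapbp (1.46) and Irf7 (2.13) rose, where 1.10% of all genes were higher, and for B2m the rise exceeded that of the input by 1.03 (adjusted p = 0.0462), a call lost without any 1 of 7 of the 9 homogenates. In the supporting cell pull-down at 24 h Stat2 rose by 1.52, where 0.188% of all genes passed in either direction. Those named for the pull-downs are single genes past the threshold, and the list genes that did not pass there are not counted here.

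Macrophages express the immunoproteasome, and their markers are given beside it. The summed TPM of 12 macrophage markers was 344 to 506 in inputs at 24 h, against 161 to 227 in control inputs, and 136 to 193 at 6 h. Of the 9 markers that could be tested in inputs, 3 rose at 24 h (C1qa, C1qb and Cd68, at 0.69, 0.99 and 3.15), where 3.78% of all genes were higher, and the median of the 9 was 0.55. Csf1r was at -0.06, Laptm5 at 0.13 and Tyrobp at 0.31 and did not pass. In the Prestin IP the sum was 235 to 356 TPM at 24 h, against 99.3 to 145 TPM in control. In the Sox2 IP it was 109.8 to 149.8 TPM in control, 248 to 258 TPM at 6 h and 221 to 245 TPM at 24 h. Psmb8 in the Sox2 IP was at 8.96 and 13.6 TPM in control and 8.83 and 5.43 TPM at 6 h. At 24 h it was at 41.4, 58.2 and 61.3 TPM. None of the 12 macrophage markers was at 0 in all libraries of any group. Lymphocyte markers summed to 1.25 to 11.98 TPM over all libraries, with Cd3g at 0 throughout the Prestin IP and Sox2 IP controls. Neutrophil markers summed to 52.5 to 259 TPM in inputs at 24 h, against 99.6 to 464 TPM in control inputs. The part of these cells in the changes of Psmb8, Psmb9, Psmb10 and Psme1 was not tested.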

How the data were processed

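The authors deposited 1 table of TPM values per library, 32 in all, in which every library sums to 1000000. Per the submitters' processing notes, reads were mapped with TopHat to GRCm38; for the tool that made the TPM values, its annotation, versions, filters and strand setting the sources used here give nothing. TPM keeps no read counts, so depth, and with it the counting error behind a low value, is unknown. Per the labels, libraries came from a directional kit.

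Genes were tested with limma 3.58.1 (R 4.3.3; lmFit, eBayes with a mean-variance trend) on log2(TPM + 1), so a fold change is on that scale and understates changes of low genes. The filter asked for 1 TPM in 5 or more libraries for inputs, 3 for Prestin fits and 2 for fits with Sox2 IPs. P-values were adjusted by Benjamini-Hochberg over all genes tested, with a threshold of 0.05. Inputs of both strains were fitted together with strain as a covariate, and the other fits used group means. The fits were also run on simulated libraries, with independent noise around each gene's mean and known changes in some genes. These held no shift of all genes between IP and input, so they did not test the effect of scaling. Alternatives tried were median-of-ratios scaling, a smaller pseudocount (0.1), all genes kept, a replicate block, single strains, each library left out in turn and, added after seeing the data, Psme2 and Psma5 each summed with its copy. Shares were computed per library with pandas 2.3.3, without a test. IP and input of one homogenate are paired by design, and each of 16 IPs correlated best with its own input after removal of group means (r 0.023 to 0.308). The r was over 0.1 in 6 of 16. In the Sox2 control and 6 h groups, with 2 libraries each, both libraries must give the same r (0.056 and 0.055). Their results are therefore not separate checks.

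The genes named by rule were Psmb8, Psmb9, Psmb10, Psme1, Psme2, Psmb5, Psmb6 and Psmb7, with up to 4 further proteasome genes and up to 4 genes of each partner list past the threshold in each direction by smallest p. The members and lists were chosen with earlier results of these data known. Of 23 partner symbols 20 were in the tables. Some genes of the lists are not reported here. Gene positions come from GENCODE M21 (GRCm38) and promoters from RefSeq (GRCm38.p6).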

Additional observations from a re-analysis of the deposited data

Results flagged for a closer look

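Of 48 proteasome genes, 21 differed in enrichment between the 2 pull-downs by limma's test of the difference itself. In outer hair cells 3 were higher and 18 lower. Over all genes 21.6% passed, 14% higher and 7.62% lower. The 10 of the 21 that were named by rule are given here. The log2 difference, outer hair cell minus supporting cell, was -1.02 for Psmb7, -0.84 for Psmc3, -1.04 for Psma6, -0.88 for Psme2b, -0.80 for Psma2, -0.68 for Psme1 and -0.55 for Psmb6. It was 0.55 for Psme4, 0.83 for Psmg3 and 0.85 for Psmb11, and with the homogenate as a block neither Psmg3 (limma adjusted p = 0.064) nor Psmb11 (0.0643) passed. The 2 strains and the 2 pull-downs cannot be told apart in this design.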

How the results depend on the processing

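The counts below are from alternative settings, for which the share of all genes past the threshold is not given. In the whole cochlea, the count of proteasome genes past the threshold at 24 h was 0 in Sox2 inputs alone. At 6 h it was 1 without the filter, 0 in Prestin inputs alone and 0 in Sox2 inputs alone. Between 24 h and 6 h it was 11 after median-of-ratios scaling, 9 in Prestin inputs alone and 5 in Sox2 inputs alone. For outer hair cell pull-downs at 24 h it was 0 with a pseudocount of 0.1, 0 without the filter and 2 after median-of-ratios scaling. In the supporting cell pull-down between 24 h and 6 h it was 0 without the filter and 0 after that scaling. For IP against input that scaling gave 45 in outer hair cells and 41 in supporting cells. As a mean of the 3 single ratios, the immune share at 24 h exceeded control by 8.39 points in the Prestin IP and was 1.84 points below control at 6 h (-1.84) in Prestin inputs.

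With 1 library left out, counts ran from 1 to 6 (whole cochlea, 6 h), 4 to 7 (24 h) and 13 to 23 (24 h against 6 h), 0 to 3 (outer hair cell IP, 6 h) and 0 to 1 (24 h), and were 0 throughout for supporting cell IP, 24 h against 6 h. The cause was not tested.

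The main fits did not take replicate numbers as pairing samples across conditions. Same-numbered libraries correlated at -0.10 to 0.087, and 9 of 24 correlated best with their own number. Among these were all Prestin inputs of control against 24 h (0.087, 0.039 and 0.044). The correlations do not settle whether inputs were paired by number. With that replicate block the counts were 1 at 6 h, 4 at 24 h and 10 for 24 h against 6 h in the whole cochlea, 0 for outer hair cell pull-downs (24 h) and 0 for supporting cell pull-downs (24 h against 6 h). With the homogenate as a block, Psmb11 lost its call in supporting cells (-0.67), Psmg3 (0.83) and Psmb11 (0.85) lost theirs for the enrichment difference, and Psmb9 gained one there (-1.27, limma adjusted p = 0.0201); the block changed no other call of a named proteasome gene.

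In outer hair cell IP against input, median-of-ratios scaling turned the direction of Psmb9 (-0.84), Psmb10 (-0.83), Psma4 (-0.25), Tapbp (-0.19) and Tap2 (-0.67), and summing with the copy that of Psme2 (-0.70). In supporting cell IP against input the scaling turned Psmb8 (-0.67), Psmb10 (-0.61), Psmb7 (-0.36), Psmd13 (-0.39), Ecpas (-0.028) and Pdia3 (-0.35). Of 3828 values of named genes under alternatives, 3451 kept direction and call, 277 lost a call, 19 gained one, 69 changed sign with no call in either setting and 12 changed sign with one. Depth is unknown, so what limits Psmb9, Psmb11 and Psma8 at their low TPM cannot be said.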

Other observations

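The partners of the proteasome differed in how far the pull-downs held them. In the outer hair cell pull-down 10 of 20 were higher than input and 6 lower by limma, where 68.5% of all genes were higher and 7.68% lower. After median-of-ratios scaling, for which the share of all genes is not given, 5 were higher and 14 lower there. In the supporting cell pull-down 2 were higher and 11 lower after it. Among those higher were the protease Ddi2, which activates Nfe2l1 (2.32), the ubiquitin receptor Adrm1 (1.65), the ligase Ube3c (1.28) and the adaptor Ecpas (1.28). Among those lower were the core maturation protein Pomp (-1.24), the small lid subunit Sem1 (-1.15), the polyubiquitin gene Ubb (-0.82) and the deubiquitinase Uchl5 (-0.23). In the supporting cell pull-down 14 of 20 were higher, among them Ddi2 (1.71) and the proteasome-bound thioredoxin Txnl1 (1.25), and none was lower, where 55.2% of all genes were higher and 2.72% lower. The enrichment in outer hair cells minus that in supporting cells was -1.23 for Pomp, -1.19 for Sem1, -1.04 for Ubb and 0.61 for Ddi2.

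The thymic catalytic subunit Psmb11 had 1.67 and 5.26 TPM in Sox2 inputs at 6 h, against 1.05 and 0.479 TPM in Sox2 control inputs, and was listed at 0 in both Sox2 IP libraries at 6 h. Psmb11 was named here after its values were seen.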
